A study of Mus musculus with 12 samples.

Results

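The genes described here are 39 enzymes that break down amino acids or move their nitrogen, measured by RNA-seq in mouse left kidney. They were chosen by symbol from the 55471 gene identifiers of the deposited table, and all 39 had a row. No cutoff on level or change was used, but earlier results of these data were known when the members were chosen. All 39 passed the filter on low counts. Kidneys came from C57/BL6 mice aged 8 to 12 weeks, taken at day 0 or at day 5 of unilateral ureteral obstruction (UUO), where the left ureter is clamped and urine can no longer drain from that kidney. The 4 groups were wild type at day 0 (2 libraries), wild type at day 5 (3), Sprr2f knockout at day 0 (4) and Sprr2f knockout at day 5 (3). Sprr2f belongs to a family of small proline-rich proteins that cross-link at the surface of epithelia. All 12 libraries are labelled UUO, day 0 included, and the age stands in a protocol that names the knockout. The labels give no other allele or agent and not how the knockout was made. They also do not say that each library is a separate animal, so p-values measure the spread between these libraries.

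Proximal tubule cells of the kidney take amino acids back from the filtered fluid and degrade many of them in mitochondria and peroxisomes. The carbon skeletons enter the citric acid cycle as fuel or become glucose, and the nitrogen leaves as ammonia, glutamine or arginine. Kidney tubules also carry steps that few other organs have, such as arginine formation from citrulline, the first step of creatine synthesis and the oxidation of D-amino acids.

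Libraries held 16567256 to 19398882 reads. Sprr2f had 447 to 1138 reads in the wild-type day 5 libraries, 0 to 76 in the knockout day 5 libraries and 0 to 5 in either group at day 0, so day 0 kidneys do not check the genotype. The series title names female mice, yet 7 of 12 libraries carried Y-linked transcripts (Ddx3y, Uty, Kdm5d and Eif2s3y summed to 112 to 170 CPM, with Xist at 0.329 to 2.11 CPM). The other 5 carried Xist at 481 to 893 CPM, with the Y-linked sum at 0.281 to 0.979 CPM. CPM is the count per 1000000 reads of a library. Wild type at day 0 held 1 library of each pattern, each day 5 group held 1 with Y-linked transcripts and 2 with Xist, and all 4 knockout day 0 libraries were Y-linked. Knockout changes of the members that moved with this mixture are given with and without it.

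Promoters of 4 members are shown first, because their 300-base windows hold recognition words of factors that define the proximal tubule. HNF4 is a nuclear receptor and HNF1 a homeodomain factor of that cell. RefSeq windows on GRCm38.p6, from 250 bases before to 50 after each start site, matched 37 of the 39 members. Capitals mark CAAAGTCCA, an HNF4 word, or its reverse complement. They lie 72 bases before the listed start in Aadat (chr8:60505874-60506173, plus strand), 21 before it in Agxt2 (chr15:10358283-10358582, plus strand) and 15 after it in Pipox (chr11:77893823-77894122, minus strand). In Prodh2 (chr7:30493408-30493707, plus strand) capitals mark a match, on the other strand, to the first part of the HNF1 palindrome, 128 bases before the start.
Aadat: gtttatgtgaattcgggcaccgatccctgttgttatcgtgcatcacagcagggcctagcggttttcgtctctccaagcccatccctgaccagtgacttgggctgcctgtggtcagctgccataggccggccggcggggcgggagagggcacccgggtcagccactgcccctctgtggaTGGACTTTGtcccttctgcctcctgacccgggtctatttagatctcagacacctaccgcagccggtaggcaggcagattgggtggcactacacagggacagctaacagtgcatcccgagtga
Agxt2: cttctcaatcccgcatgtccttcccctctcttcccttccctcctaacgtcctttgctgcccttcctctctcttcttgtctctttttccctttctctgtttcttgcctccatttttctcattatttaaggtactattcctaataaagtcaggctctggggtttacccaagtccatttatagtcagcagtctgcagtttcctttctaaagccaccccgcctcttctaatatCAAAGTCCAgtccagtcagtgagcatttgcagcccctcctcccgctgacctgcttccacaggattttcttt
Pipox: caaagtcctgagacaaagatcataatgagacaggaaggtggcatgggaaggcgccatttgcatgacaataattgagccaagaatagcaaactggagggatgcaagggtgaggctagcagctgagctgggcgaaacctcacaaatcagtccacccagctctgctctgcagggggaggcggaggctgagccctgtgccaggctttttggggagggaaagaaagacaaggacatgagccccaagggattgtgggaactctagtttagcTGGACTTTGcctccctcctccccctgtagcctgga
Prodh2: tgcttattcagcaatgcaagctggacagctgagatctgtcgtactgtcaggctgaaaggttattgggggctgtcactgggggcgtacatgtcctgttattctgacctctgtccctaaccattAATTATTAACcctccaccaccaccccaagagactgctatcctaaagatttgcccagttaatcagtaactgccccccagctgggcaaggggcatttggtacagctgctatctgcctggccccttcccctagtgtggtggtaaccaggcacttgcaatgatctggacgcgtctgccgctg

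The HNF4 word was present in 3 member genes and in 0.475% of all 32851 windows, and the short HNF1 word in 1 member gene and 0.399% of windows. Both strands were searched for 16 words, chosen with the expression results known. The full HNF1 palindrome, the direct repeat of nuclear receptors with a spacer of 1 base, the estrogen-related receptor word TCAAGGTCA, the CREB word TGACGTCA, the ATF4 word TGATGNAAT, the CEBP word TTGCGCAAT and the glucocorticoid receptor palindrome were in no member window. CAAAGTCC, part of the HNF4 word, was in the same 3 genes (1.42% of windows). TATAAA was in 2 member genes (13.6% of windows), TGACGT in 1 (7.51%), TTGCNNAA in 5 (10.8%), AGAACA in 4 (19.0%), CCAAT in 22 (37.4%) and GGGCGG in 20 (35.7%). These matches describe letters in a window and show no binding.

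Obstruction lowered most of the 39 transcripts in both genotypes. In wild type, 37 were lower at day 5 and 0 higher (limma, Benjamini-Hochberg adjusted p under 0.05 over 18093 genes), where 22.6% of all tested genes were called lower and 24.5% higher. In the knockout, 32 were lower and 0 higher, against 25.4% of tested genes called lower and 29.4% higher. All 32 were among the 37, which is 86.5% of the wild-type list. The change was at least 2-fold in 33 members in wild type (8.25% of tested genes) and in 28 in the knockout (7.97%). Every day 5 library lay below every day 0 library for 38 members in wild type (30.7% of tested genes) and for 34 in the knockout (25.6%). The opposite held for 0 members in either genotype (34.4% and 29.5% of tested genes). The median log2 change was -1.73 in wild type and -1.53 in the knockout, beside 0.04 and 0.07 over all tested genes. Scaling by library size alone raised the median of all genes to 0.40 and 0.45. It raised the share of called genes that were higher from 52.1% to 81.1% in wild type and from 53.7% to 82.3% in the knockout, and the members' medians were then -1.31 and -1.08. Changes below are on log2(scaled CPM + 0.5), where scaled CPM is CPM divided by a normalization factor. The 39 enzymes together took 1.24 to 1.49% of reads in wild type at day 0 and 0.423 to 0.540% at day 5. In the knockout they took 1.15 to 1.23% and 0.438 to 0.674%. In whole tissue, fewer cells of a type and less RNA per cell cannot be told apart.

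**Figure D1:**
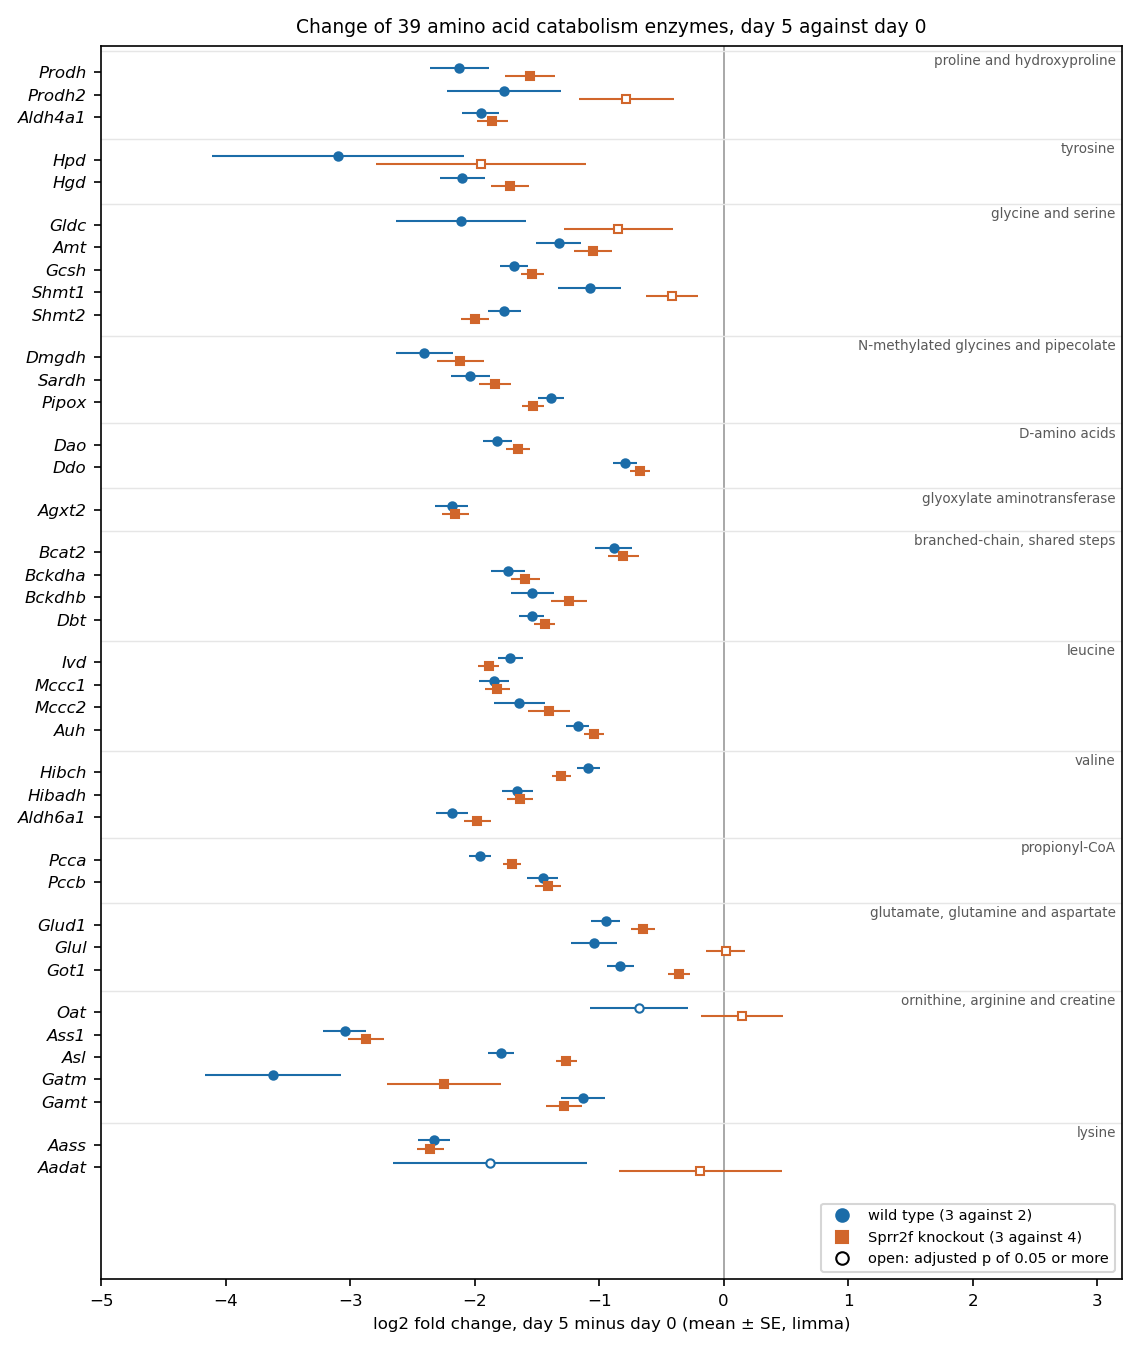
Log2 fold change of each of the 39 enzymes at day 5 against day 0, grouped by the amino acid degraded, in wild type (circles, 3 against 2 libraries) and Sprr2f knockout (squares, 3 against 4), with SE bars from limma. Open symbols have an adjusted p of 0.05 or more; 2 are open in wild type and 7 in the knockout.

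The arginine and creatine group held the most abundant member at day 0, Ass1. Ass1 encodes argininosuccinate synthase, which joins citrulline to aspartate on the way to arginine (chr2:31470207-31520672, plus strand, GENCODE M21 on GRCm38). Per kilobase of exon it led all members at day 0, at 1300 scaled CPM in wild type, above Gatm at 437.5 and Aadat at 433.9. The wild-type day 0 libraries had 3511 and 2764 scaled CPM and the day 5 libraries 398, 399 and 337. The knockout had 3384, 3853, 3677 and 3324 at day 0 and 458, 405 and 611 at day 5. No day 5 library reached any day 0 library, and the log2 change was -3.05 (SE 0.17, adjusted p = 1.33e-07) in wild type and -2.87 (SE 0.15, adjusted p = 3.05e-08) in the knockout. Of the 50-base words in Ass1 transcripts, 38.6% also occur in the processed pseudogene Gm5424, which carried 1575 reads against 377625 for Ass1, so a part of its reads could be assigned either way.

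Gatm, glycine amidinotransferase, makes guanidinoacetate, the creatine precursor, from arginine and glycine. Scaled CPM went from 1129 and 1497 at day 0 to 120, 161 and 60.6 at day 5 in wild type. Knockout libraries were at 709, 857, 754 and 967 at day 0 and 255, 62.5 and 317 at day 5. All day 5 values lay below all day 0 values, and the lowest at each day 5 was the Y-linked library. The log2 change was -3.62 (SE 0.55, adjusted p = 0.000148) in wild type and -2.24 (SE 0.46, adjusted p = 0.00116) in the knockout, or -1.52 without the Y-linked knockout day 5 library. Gamt, which methylates guanidinoacetate to creatine, fell in wild type (-1.13 on the log2 scale) and in the knockout (-1.28). Asl, which splits argininosuccinate into arginine and fumarate, also fell in both (-1.79 and -1.26, in the same order).

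Oat, ornithine aminotransferase, was the member whose groups overlapped in wild type. There its scaled CPM was 212 and 479 at day 0 and 233, 249 and 136 at day 5. Knockout levels were 203, 176, 201 and 211 at day 0 and 295, 121 and 293 at day 5. At day 5 the 2 Xist libraries of the knockout stood above every knockout day 0 library and the Y-linked library stood below them. The log2 change was -0.68 (SE 0.40, adjusted p = 0.178) in wild type and 0.15 (SE 0.33, adjusted p = 0.731) in the knockout. Without wild-type day 0 replicate 1, the Y-linked library, Oat was called lower in wild type (-1.27, adjusted p = 0.0324), while without day 0 replicate 2, the Xist library, its change was -0.10 (adjusted p = 0.883). In the knockout its change was -0.07 without day 5 replicate 1, -0.06 without replicate 3 and 0.57 without the Y-linked replicate 2.

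**Figure D2:**
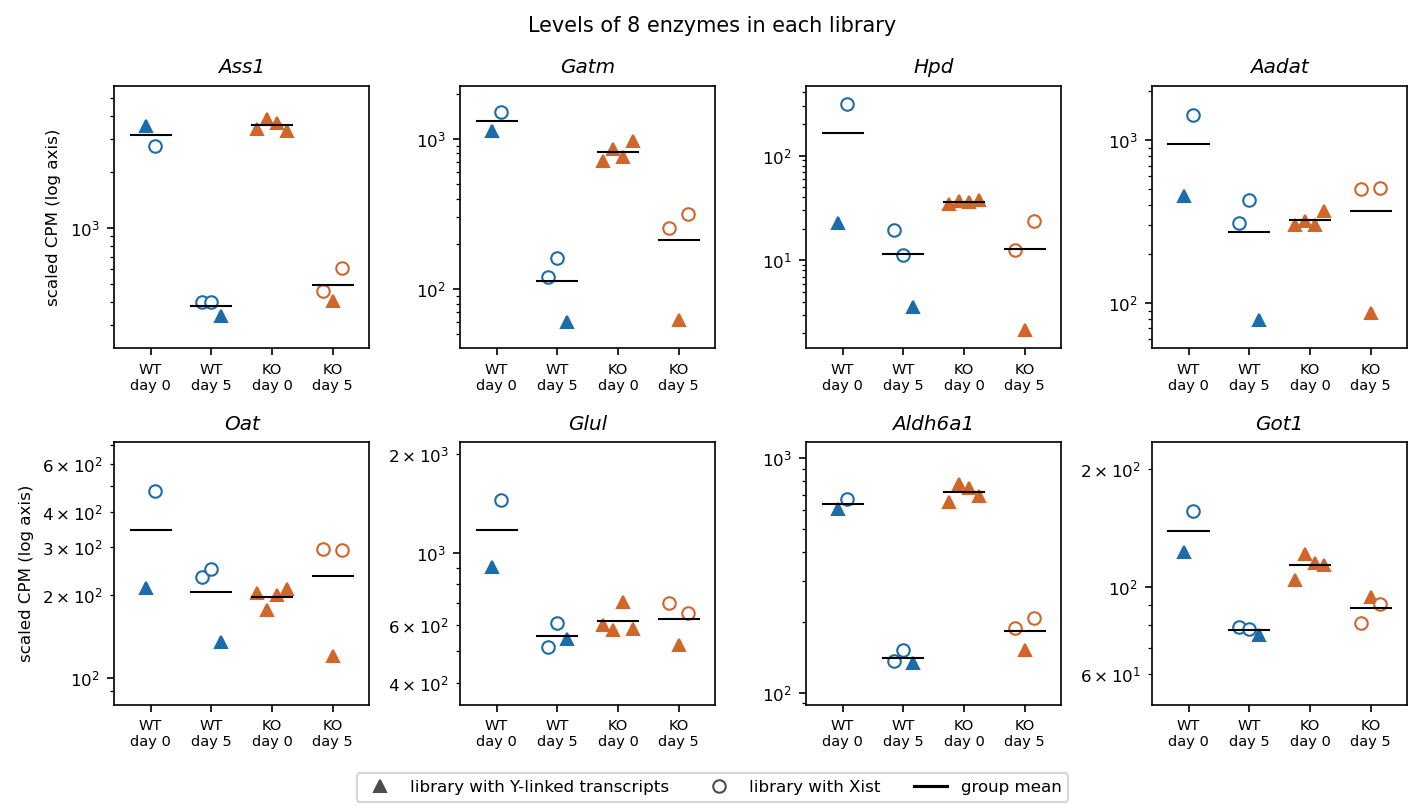
Scaled CPM (log axis) of 8 enzymes in each of the 12 libraries by genotype and day; triangles are libraries with Y-linked transcripts, open circles libraries with Xist, and bars group means. Ass1 and Aldh6a1 separate by day in each genotype, while Hpd, Aadat and Oat differ between the sex-chromosome patterns within the mixed groups.

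Lysine is degraded through saccharopine by the bifunctional enzyme Aass, and Aadat then transaminates aminoadipate. Aass dropped from 459 and 410 scaled CPM to 78.7, 79.9 and 101 in wild type. In the knockout it dropped from 463, 589, 561 and 531 to 95.3, 111 and 106. Its log2 changes of -2.33 (SE 0.13) and -2.36 (SE 0.11) were close in size, and no day 5 library overlapped a day 0 library. Wild-type Aadat had 454 and 1436 scaled CPM at day 0 and 312, 428 and 79.4 at day 5, so the groups did not overlap although the change of -1.88 (SE 0.78) missed the threshold (adjusted p = 0.0647). Knockout libraries had 304, 320, 300 and 369 at day 0 and 504, 87.7 and 513 at day 5. The 2 Xist libraries were there above, and the Y-linked library below, all day 0 libraries, and the change was -0.19 (SE 0.65, adjusted p = 0.827), or 0.66 without that library. The wild-type change of Aadat passed the threshold without wild-type day 0 replicate 1 (-2.71, adjusted p = 0.0352), wild-type day 5 replicate 2 (-2.35, adjusted p = 0.037) or knockout day 5 replicate 2 (-1.87, adjusted p = 0.0172). Without wild-type day 0 replicate 2, the Xist library, it was -1.05 (adjusted p = 0.409).

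Tyrosine breakdown passes through Hpd, 4-hydroxyphenylpyruvate dioxygenase, and Hgd, homogentisate dioxygenase. Hgd fell in both genotypes, from 442 and 485 scaled CPM to 108, 124 and 93.2 in wild type and from 464, 492, 470 and 476 to 163, 105 and 176 in the knockout. The changes were -2.10 (SE 0.18) and -1.71 (SE 0.15), with no overlap. Hpd had 22.5 scaled CPM in the Y-linked and 307 in the Xist library of wild type at day 0, and 19.3, 11.3 and 3.55 at day 5. The knockout had 34.1, 36.8, 35.7 and 37.4 at day 0 and 12.6, 2.17 and 23.6 at day 5. Day 5 lay below day 0 in both genotypes, with a change of -3.10 (SE 1.01, adjusted p = 0.0228) in wild type and -1.95 (SE 0.84, adjusted p = 0.0672) in the knockout. The calls swapped when limma was fitted on only the groups compared. The change was then -3.11 (adjusted p = 0.0568) in wild type and -1.95 (adjusted p = 0.0134) in the knockout. The wild-type call rests on the Xist library at day 0, without which the change was -1.23 (adjusted p = 0.347), against -4.98 (adjusted p = 0.00138) without the Y-linked day 0 library. Without the Y-linked day 5 library it was -2.46 (adjusted p = 0.0794). The knockout change of Hpd passed without knockout day 5 replicate 3 (-2.62, adjusted p = 0.0301). On leaving out 1 wild-type day 0 library, whichever it was, the change was -1.98. Wild-type libraries enter the knockout change only through the spread, scaling, filter and adjustment shared by all groups. Without knockout day 5 replicate 2, the Y-linked library, the knockout change of Hpd was -1.04 (adjusted p = 0.296).

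Proline and hydroxyproline are oxidized by Prodh and Prodh2, whose products share the dehydrogenase Aldh4a1. Prodh fell in both genotypes (log2 change -2.12 in wild type and -1.55 in the knockout), and so did Aldh4a1 (-1.95 and -1.86). For Aldh4a1, wild type had 379 and 311 scaled CPM at day 0 and 95.7, 95.1 and 76.1 at day 5. Those 3 values are all below either day 0 library. Prodh2 fell by 1.76 on the log2 scale in wild type (adjusted p = 0.00661), where its day 0 libraries were at 82.3 and 204 scaled CPM and its day 5 libraries at 51.1, 47.3 and 22.3. Without the day 0 Xist library its change was -1.12 (adjusted p = 0.0998). In the knockout the change of Prodh2 was -0.78 (SE 0.38, adjusted p = 0.102), with 75.9 to 95.3 scaled CPM at day 0 and 58.3, 24.98 and 73.3 at day 5. Without day 5 replicate 3 it was called lower (-1.09, adjusted p = 0.0437), and without the Y-linked replicate 2 it was -0.32 (adjusted p = 0.45). With limma fitted on only the knockout groups, Prodh2 was called lower (-0.78, adjusted p = 0.0384). Of the words in Aldh4a1, 30.0% also occur in Gm21969, a gene model on the same strand that carried 15 reads.

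The glycine cleavage system splits glycine into carbon dioxide, ammonia and a one-carbon unit, and serine hydroxymethyltransferases interconvert serine and glycine. All 5 members of this group fell in wild type and 3 fell in the knockout. Shmt2, the mitochondrial transferase, went from 235 and 189 scaled CPM to 61.3, 54.8 and 69.7 in wild type. Knockout levels went from 274, 330, 303 and 252 to 67.7, 72.5 and 75.9. These are log2 changes of -1.76 (SE 0.13) and -1.99 (SE 0.11), without overlap. Gcsh, the lipoyl-carrying H protein, fell too (-1.68 in wild type and -1.54 in the knockout), as did Amt, the T protein (-1.33 and -1.05). Gldc, the P protein that releases carbon dioxide, fell by 2.11 in wild type (adjusted p = 0.00494). Its knockout change was -0.85 (SE 0.44, adjusted p = 0.119), with 63.3 to 101 scaled CPM at day 0 and 82.5, 20.6 and 47.9 at day 5. Without day 5 replicate 1 it was called lower (-1.30, adjusted p = 0.0255), and without the Y-linked replicate 2 it was -0.32 (adjusted p = 0.515). Cytosolic Shmt1 fell by 1.08 in wild type (adjusted p = 0.0034) and had a change of -0.41 (SE 0.21, adjusted p = 0.112) in the knockout. Without the wild-type day 0 Xist library, its wild-type change was -0.70 (adjusted p = 0.057). Without knockout day 5 replicate 3, its knockout change was called (-0.63, adjusted p = 0.0258), and without the Y-linked replicate 2 it was -0.13 (adjusted p = 0.534).

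The enzymes that demethylate glycine derivatives all fell. Dmgdh and Sardh remove the methyl groups of dimethylglycine and sarcosine in mitochondria. Dmgdh went from 103 and 150 scaled CPM to 20.4, 24.4 and 24.6 in wild type and from a range of 143 to 147 to 33.3, 23.0 and 47.3 in the knockout. These are log2 changes of -2.40 (SE 0.23) and -2.11 (SE 0.19), without overlap. Sardh fell in both (-2.04 in wild type and -1.84 in the knockout), and so did Pipox, a peroxisomal oxidase of sarcosine and pipecolate (-1.39 and -1.53). Among the D-amino acid oxidases, Dao, which takes neutral D-amino acids, fell further (-1.82 and -1.65) than Ddo, which oxidizes D-aspartate (-0.79 and -0.67); that contrast was not tested. Ddo had the lowest day 0 level per kilobase of the members in wild type, at 7.16 scaled CPM. Agxt2, a mitochondrial aminotransferase that uses glyoxylate, had 134 and 114 scaled CPM in wild type at day 0 and 25.1, 26.5 and 29.1 at day 5. Its changes were -2.19 (SE 0.13) and -2.15 (SE 0.11), and the groups did not overlap in either genotype.

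All 13 enzymes of branched-chain amino acid and propionyl-CoA breakdown fell in both genotypes. Bcat2 transfers the amino group of leucine, isoleucine and valine, and changed least of the 4 shared steps, by -0.88 (SE 0.15) in wild type and -0.80 (SE 0.12) in the knockout. Bckdha, Bckdhb and Dbt form the branched-chain keto acid dehydrogenase, and fell in wild type (-1.73, -1.54 and -1.54) and in the knockout (-1.59, -1.25 and -1.44). In the leucine branch Ivd, isovaleryl-CoA dehydrogenase, went from 528 and 484 scaled CPM to 149, 152 and 161 in wild type, and from a range of 603 to 711 to 160, 166 and 190 in the knockout. That is -1.71 (SE 0.10) and -1.89 (SE 0.08), with tight libraries in each group. Mccc1 and Mccc2, the subunits of methylcrotonyl-CoA carboxylase, fell in wild type (-1.85 and -1.64) and in the knockout (-1.82 and -1.40). Auh, the next hydratase, fell in both (-1.17 in wild type and -1.04 in the knockout).

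In the valine branch Aldh6a1, methylmalonate semialdehyde dehydrogenase, had the steepest change. It went from 607 and 674 scaled CPM to 137, 152 and 134 in wild type. Knockout levels went from 653, 781, 745 and 688 to 188, 152 and 208. The changes were -2.18 (SE 0.13) and -1.98 (SE 0.11). Hibadh, the dehydrogenase before it, fell in wild type and knockout (-1.66 and -1.64), and so did Hibch, which frees hydroxyisobutyrate from CoA (-1.09 and -1.30). Pcca and Pccb, the subunits of propionyl-CoA carboxylase, fell in wild type (-1.95 and -1.45) and in the knockout (-1.70 and -1.41). Pcca had the smallest adjusted p of all members in both genotypes, 6.05e-08 and 1.74e-08, with 186 and 183 scaled CPM at day 0 and 45.7 to 49.1 at day 5 in wild type.

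Some of these rows overlap other gene models, and the sources used here do not state whether counting used strand. B3gnt8, on the opposite strand, covers 61.7% of Bckdha exon bases and carried 1387 reads against 11380. An antisense gene, 0610005C13Rik, covers 15.9% of Bcat2 and carried 12645 reads against 17430, with its own fall at day 5 (-1.94 in wild type and -1.70 in the knockout). Bbof1 covers 18.6% of Aldh6a1 and carried 782 reads against 85864. The values of Bckdha and Bcat2 are uncertain to that extent.

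The 3 glutamate, glutamine and aspartate enzymes had a median change of -0.95 in wild type and -0.36 in the knockout, beside -1.73 and -1.53 over the 39 members. Glud1, glutamate dehydrogenase, releases ammonia from glutamate and fell in wild type (-0.95) and in the knockout (-0.65). Under scaling by library size the knockout change of Glud1 was -0.19 (adjusted p = 0.102). Got1, the cytosolic aspartate aminotransferase, fell in both (-0.83 and -0.36). The knockout change of Got1 missed the threshold among the Y-linked libraries alone (-0.26, adjusted p = 0.0741) and was 0.09 (adjusted p = 0.382) under scaling by library size. Glul, glutamine synthetase, builds glutamine rather than degrading it. It had 903 and 1448 scaled CPM in wild type at day 0 and 516, 609 and 546 at day 5. Knockout libraries were at 600, 583, 706 and 583 at day 0 and 703, 524 and 656 at day 5. The wild-type groups were separate, with a change of -1.04 (SE 0.18, adjusted p = 0.000499), while the knockout groups overlapped, with a change of 0.02 (SE 0.15, adjusted p = 0.938). Under scaling by library size the knockout change was 0.47 (adjusted p = 0.0219). At wild-type day 5 Glul had the highest level per kilobase of the 39, 167.5 scaled CPM, beside 156.6 for Ass1.

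The sex-chromosome pattern moved with 13 of the 39 members. With group and pattern in 1 model, these 13 were lower in libraries with Y-linked transcripts and 0 were higher, where 4.41% of tested genes were called lower and 3.53% higher. Without knockout day 5 replicate 2, 7 members were called lower. Over all tested genes 245 of 18017 were then called lower, against 797 of 18093 with that library. All knockout day 0 libraries share a pattern, so the difference is estimated from the other 3 groups. It was -2.71 (SE 0.27) on the log2 scale for Hpd, -2.17 (SE 0.14) for Aadat, -1.33 (SE 0.23) for Gatm, -1.27 (SE 0.22) for Gldc, -1.26 (SE 0.10) for Prodh2 and -1.08 (SE 0.09) for Oat. The other 7 were Shmt1 (-0.61), Prodh (-0.55), Mccc2 (-0.50), Amt (-0.44), Hgd (-0.40), Bckdhb (-0.37) and Bcat2 (-0.31). The difference for Gatm was -0.85 (adjusted p = 0.0292) without knockout day 5 replicate 2. Without that library, Gldc (-1.08), Shmt1 (-0.48), Amt (-0.31), Hgd (-0.24), Bckdhb (-0.27) and Bcat2 (-0.35) were no longer called. Prodh was not called without wild-type day 5 replicate 3 (-0.47, adjusted p = 0.0775), and Bckdhb and Bcat2 were also lost without several other libraries. In all 3 mixed groups the Y-linked library was below every Xist library for 19 members, 48.7%, as it was for 15.7% of tested genes. It was above every Xist library for Pipox and Aass, 5.13% of members, and for 14.1% of tested genes. Each mixed group held 1 Y-linked library, and these libraries also differed in cell markers. At day 5 summed proximal tubule markers were 3723 scaled CPM in the Y-linked library against 4016 and 4738 in wild type. In the knockout they were 4613 against 6368 and 6918. At wild-type day 0 the Y-linked library was the higher, 20016 against 19306. The pattern cannot be told apart from other differences of these single libraries.

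With the pattern as a covariate, 39 members were lower at day 5 in wild type (25.2% of tested genes) and 38 in the knockout (25.3%), and 0 were higher in either (26.5% and 27% of tested genes). This fit assumes the same pattern difference in every group, and knockout day 0 holds no Xist library to check it. In wild type at day 0, wild type at day 5 and knockout at day 5, Xist over Y-linked means differed for some members. They were 1.33, 2.32 and 4.57 for Gatm, 13.7, 4.31 and 8.35 for Hpd, and 2.25, 1.78 and 2.43 for Oat. The knockout change became -3.76 (SE 0.33, adjusted p = 8.34e-07) for Hpd, -1.63 (SE 0.17, adjusted p = 3.11e-06) for Aadat and -0.58 (SE 0.11, adjusted p = 0.000507) for Oat. It was -1.62 for Prodh2, -1.69 for Gldc and -0.82 for Shmt1, and all 6 were then called lower. Glul was the exception, at -0.21 (SE 0.14, adjusted p = 0.225). With the covariate, Gatm changed by -3.84 in wild type and -3.13 in the knockout (-3.62 and -2.24 without it). Prodh changed by -2.21 and -1.92 (-2.12 and -1.55 without it). The knockout change was -1.74 for Mccc2, -1.34 for Amt, -1.98 for Hgd, -1.49 for Bckdhb and -1.01 for Bcat2. Among Y-linked libraries alone, 39 members were called lower in wild type (16.9% of tested genes) and 37 in the knockout (21.1%), and among Xist libraries alone 39 in wild type (17.8%). These fits set 1 library against 1, 1 against 4 and 2 against 1, in that order, so each lone library is assumed to vary like the other groups, and they give little check by replicates. The single Y-linked knockout day 5 library lay below all 4 knockout day 0 libraries for 39 of 39 members, as it did for 37% of tested genes, which is a statement on that 1 library. It held 6.02% of the day 0 mean for Hpd, 27.1% for Aadat, 61.0% for Oat and 84.8% for Glul.

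**Figure D3:**
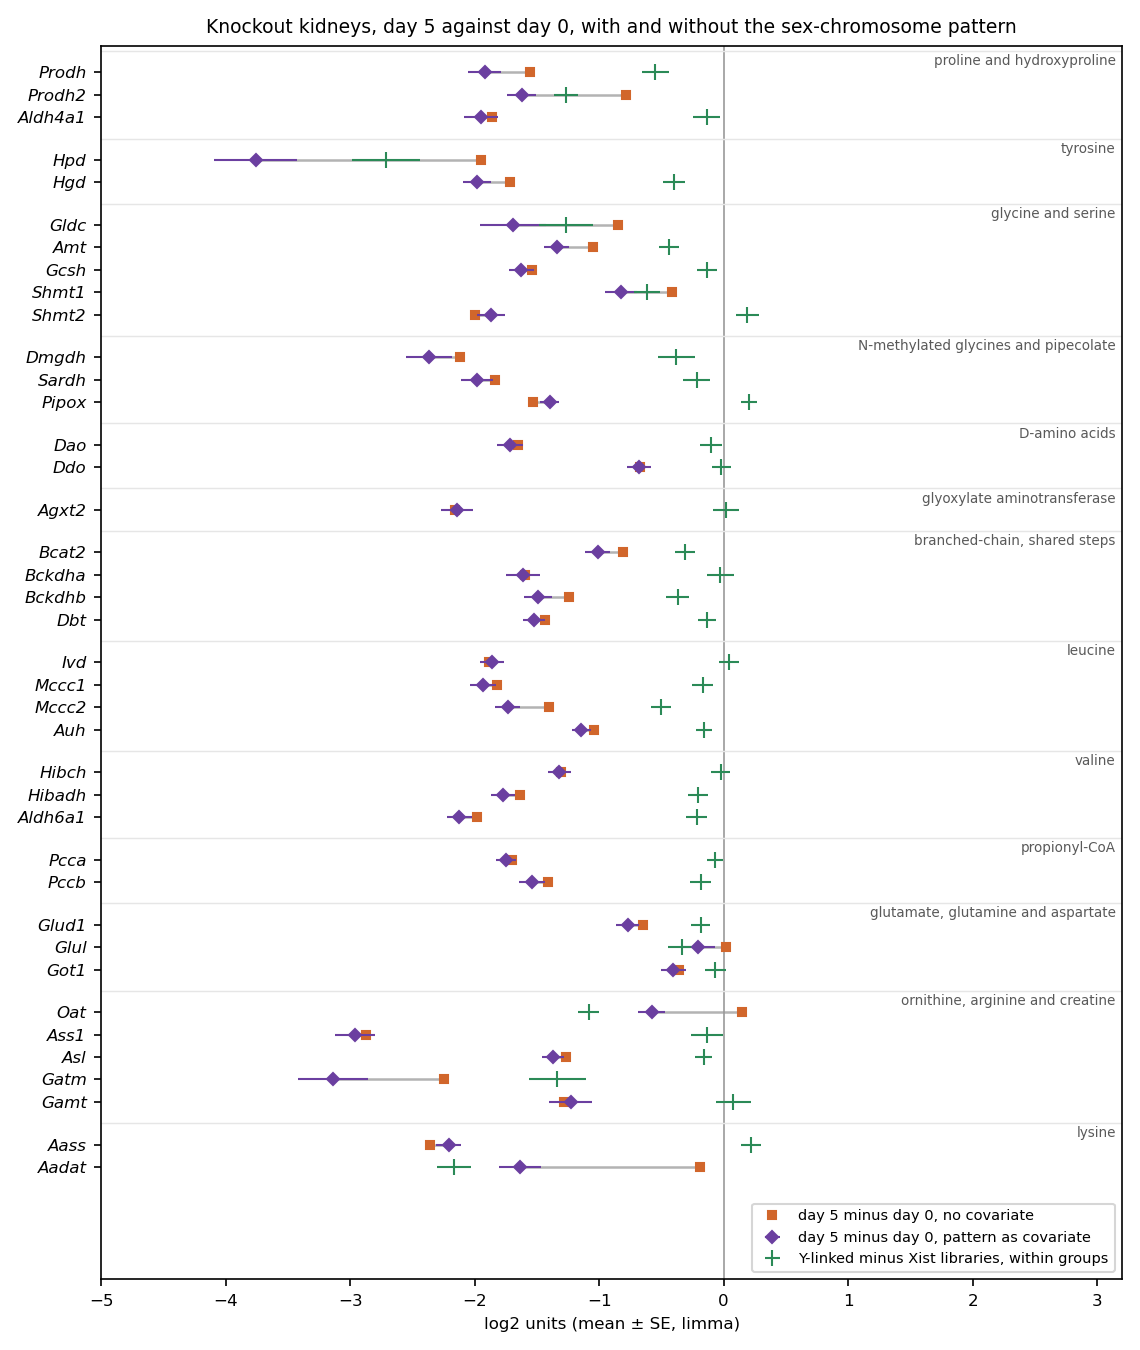
Change of each enzyme at day 5 against day 0 in the knockout without (squares) and with (diamonds, SE bars) the sex-chromosome pattern as covariate, and the difference between libraries with Y-linked transcripts and with Xist within groups (ticks, SE bars), all in log2 units. Grey lines join the 2 estimates; they are longest for Hpd, Aadat, Gatm, Gldc, Prodh2 and Oat.

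Before obstruction the genotypes did not separate by the test. At day 0, limma called 0 of the 39 members higher and 0 lower in the knockout, where 0% of tested genes were called higher and 0.0166% lower. Unadjusted p was under 0.05 for 11 members. The share of all tested genes under that value was not counted, so 11 is not a result about the members. Glul came closest, at -0.89 (SE 0.18, adjusted p = 0.081), with both wild-type libraries above every knockout library. DESeq2 called Glul lower (-0.91, adjusted p = 0.00019) and Shmt2 (0.48) and Ivd (0.36) higher, while edgeR and limma-voom called 0. Over all 18093 tested genes, DESeq2 called 229 higher and 146 lower at day 0. Without wild-type day 0 replicate 1, which leaves 1 wild-type library, the difference was -1.23 for Glul, -0.45 for Got1 and 0.52 for Pipox. The knockout libraries lay below both wild-type libraries for 8 members (12.4% of tested genes) and above both for 9 (12.9%). The lower 8 were Gldc, Shmt1, Glul, Got1, Oat, Asl, Gatm and Aadat. All knockout day 0 libraries are Y-linked, so the pattern moves with genotype here. With it as covariate the difference was -0.24 for Aadat (-1.32 without), -0.15 for Oat (-0.69 without) and -0.72 for Glul.

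At day 5, limma, edgeR and limma-voom called 0 members between genotypes, and limma called 0% of tested genes in either direction. Unadjusted limma p was under 0.05 for 13 members, again without a share over all tested genes to set beside it. The knockout mean was above the wild-type mean for 38 of 39 members, all but Bcat2, and for 52.7% of tested genes. The median log2 difference over members was 0.21, beside 0.0047 over all tested genes; it was 0.12 without knockout replicate 3 and 0.34 without knockout replicate 2. The knockout libraries were all above the wild-type libraries for 10 members (5.74% of tested genes), and below them for 0 (4.18%). Dao had 162, 141 and 186 scaled CPM in the knockout against 122, 127 and 113 in wild type, a difference of 0.42 (SE 0.10, adjusted p = 0.605). Pcca had 58.8, 54.8 and 67.4 against 45.7, 49.1 and 47.1, a difference of 0.34 (SE 0.08, adjusted p = 0.605). DESeq2 called these 2 higher (0.44, adjusted p = 0.0123, and 0.35, adjusted p = 0.0115). Over all tested genes it called 37 higher and 3 lower. Hgd was called higher by limma without knockout replicate 2 (0.65, adjusted p = 0.0487), where 15 of 18017 tested genes were called higher and 8 lower. Both groups held the same mix of sex-chromosome patterns.

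The change with obstruction did not differ between genotypes by the interaction test, in which limma called 0 members higher (0.00553% of tested genes) and 0 lower (0%). Unadjusted p was under 0.05 for 4 members, with no share over all tested genes counted, and edgeR and limma-voom called 0. The interaction of Glul was 1.06 (SE 0.24, adjusted p = 0.402). DESeq2 called it (1.08, adjusted p = 0.00869), and over all tested genes DESeq2 called 28 higher and 9 lower. Without wild-type day 0 replicate 1, which leaves the Xist library alone in that group, limma gave 1.38. All 4 knockout day 0 libraries are Y-linked, so the sex-chromosome pattern also enters this contrast. With the pattern as covariate in limma, the interaction of Glul was 0.89 (SE 0.19, adjusted p = 0.215).

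Other enzymes of amino acid breakdown moved in the same direction. Of 64 tested, 54 were lower and 2 higher in wild type, and 51 were lower and 4 higher in the knockout, with medians of -1.47 and -1.15. The smallest adjusted p in wild type belonged to Gstz1, which acts after Hgd in tyrosine breakdown (-1.80), Dld, the dehydrogenase shared with the glycine cleavage system (-1.36), Gcdh, glutaryl-CoA dehydrogenase of the lysine pathway (-1.90), and Suox, sulfite oxidase (-1.81). The exceptions were Arg1 and Arg2, which split arginine into urea and ornithine. Arg2 rose by 1.48 in wild type and by 2.40 in the knockout, and Arg1 by 2.81 and 2.94. In the knockout Gls2, a glutaminase, rose by 0.61 and Maoa, monoamine oxidase A, by 0.58; these 4 are named because they ran against the list.

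Of 9 enzymes that make amino acids or polyamines, 3 rose and 3 fell in wild type, and 4 rose and 3 fell in the knockout. These changes are from the fit without the pattern covariate. At wild-type day 0 the summed level of the list was 1181 scaled CPM in the Y-linked and 618 in the Xist library. All knockout day 0 libraries are Y-linked, so the pattern also enters the knockout changes of this list. Aldh18a1 and Pycr1, which build proline from glutamate, rose by 1.88 and 2.04 in wild type and by 1.99 and 1.10 in the knockout. Asns, asparagine synthetase, rose by 2.12 and 1.91. Phgdh, the entry to serine synthesis, had a change of -0.08 in wild type (adjusted p = 0.845) and rose by 0.73 in the knockout. Sms and Odc1, of polyamine synthesis, and Psph, of serine synthesis, fell in wild type (-1.18, -1.63 and -0.55) and in the knockout (-1.12, -2.32 and -0.59). Srm and Psat1 had changes of 0.35 (adjusted p = 0.102) and -0.23 (adjusted p = 0.33) in wild type and of 0.01 (adjusted p = 0.937) and -0.15 (adjusted p = 0.41) in the knockout. Thus Aldh18a1 and Pycr1 were higher at day 5 in kidneys where Prodh was lower.

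**Figure D4:**
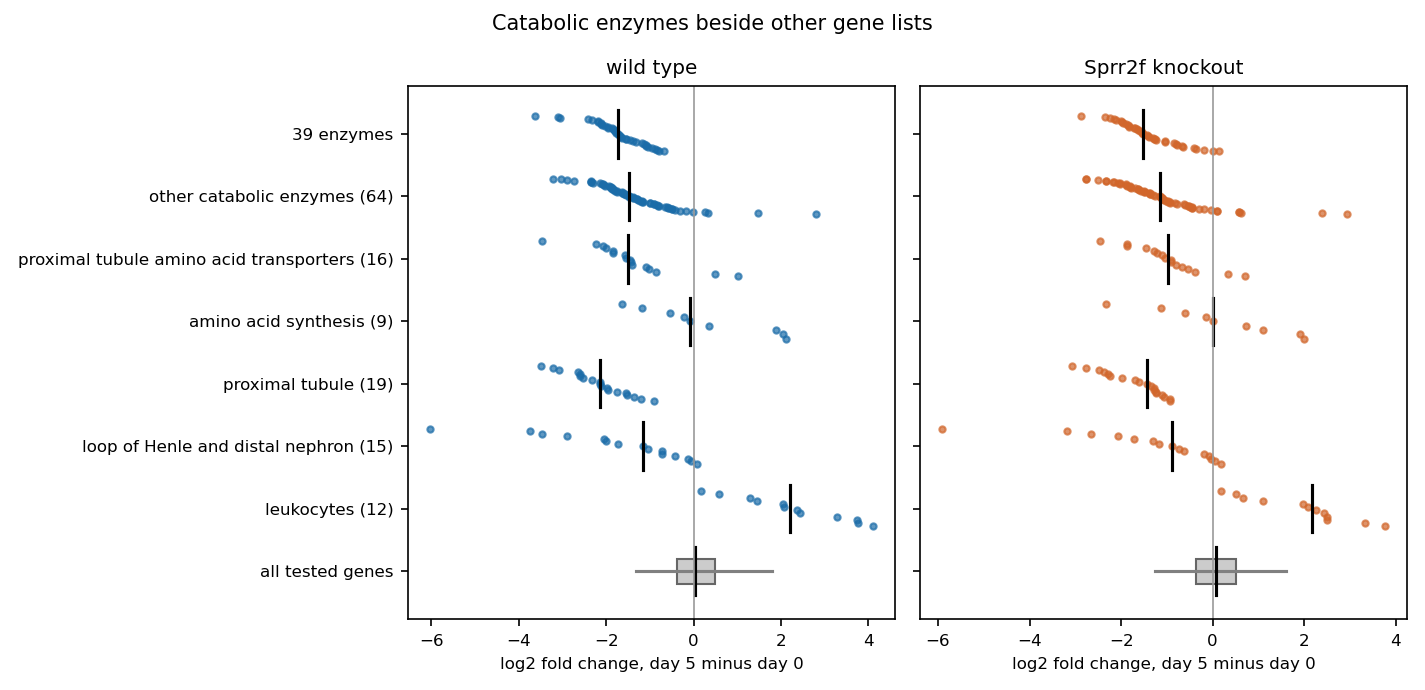
Log2 fold change at day 5 against day 0 for the 39 enzymes and 6 other gene lists (points are genes, number tested in brackets, black bars medians), in wild type and knockout; the grey box spans the middle 50% of all tested genes and the line the 5th to 95th percentile. The enzyme median of -1.73 in wild type lies left of the whole box, which runs from -0.38 to 0.50.

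Transporters and cell markers moved beside the enzymes. Of 16 amino acid transporters of the proximal tubule, 14 fell in wild type and 13 in the knockout, among them the mitochondrial carriers Slc25a15 (-1.84) and Slc25a13 (-1.46) in wild type. Of 19 proximal tubule markers, 19 fell in wild type and 18 in the knockout, with medians of -2.13 and -1.44. Their summed level went from 19310 to 20020 scaled CPM at day 0 down to 3723 to 4738 in wild type, and from 20570 to 24500 down to 4613 to 6918 in the knockout. Hnf4a, which encodes the factor of the promoter word above, fell in wild type (-1.55) and in the knockout (-1.07). Of 15 markers of the loop of Henle and distal nephron, 10 fell in each genotype. Leukocyte markers rose for 11 of 12 tested genes in wild type and 10 in the knockout, with sums of 142 to 143 scaled CPM at day 0 and 584 to 680 at day 5 in wild type. In the knockout these sums were 143 to 176 and 624 to 836. Fibroblast and myofibroblast markers rose for 10 of 10 and 9 of 10 genes. Of 7 endothelial markers, 1 rose and 1 fell in each genotype. Of 7 liver markers, which include Arg1, 1 rose and 1 fell in wild type and 1 rose and 3 fell in the knockout. The part of these markers in the change of the 39 enzymes was not tested.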

How the data were processed

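Total RNA of 12 frozen left kidneys was sequenced to 50 bp (PrepX mRNA kit), per the labels' protocols. STAR, SAMtools, HTSeq and GRCm38.p6 appear in the submitters' processing notes. The authors deposited 1 table of CPM, read counts scaled to the reads mapped to genes. Each column sums to 1000000, and 100% of 665652 values, zeros included, were whole multiples (tolerance 0.001) of 1 read, so reads per gene were recovered.

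CPM were divided by TMM factors (edgeR 4.0.16, R 4.3.3). Genes passing filterByExpr (count 10, total 15), 18093 in all, were tested with limma 3.58.1 (empirical Bayes with trend) on log2(scaled CPM + 0.5), with 4 groups in 1 fit, Benjamini-Hochberg adjustment over all of them and a threshold of 0.05. Alternatives were edgeR quasi-likelihood, DESeq2 1.42.0 and limma-voom on recovered reads, 0.1 or 1 CPM added, RLE or library-size scaling, other filters, only the groups compared, the sex-chromosome pattern as covariate or stratum, and each library left out. A library was called Y-linked where the sum of 4 Y-linked genes exceeded Xist. The code was tested on simulated data. Coordinates and shared 50-base words come from GENCODE M21. The members, gene lists and tests were chosen with earlier results of these data known. All 39 members are named, with the 4 genes of smallest adjusted p among the other catabolic enzymes and those that ran against that list. The synthesis enzymes are all named. Of the transporters Slc25a15 and Slc25a13 are named, and of the proximal tubule markers Hnf4a, for the promoter word. The other marker lists are given mainly as counts. The result of 1 listed gene is not reported here. Replicate numbers follow the order of the records. Figures were drawn with matplotlib 3.10.9.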

Additional observations from a re-analysis of the deposited data

Results flagged for a closer look

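With 39 groups of 4 knockout day 0 libraries examined, chance alone would mark about 1 in 20, and 2 held a library standing apart. Shmt1 was at 80.7 scaled CPM in replicate 1, with the other 3 libraries between 70.3 and 71.4. Glul was at 706 scaled CPM in replicate 3, with the other 3 between 583 and 600. In each case the gap to the nearest library exceeded 0.829 of the group's whole range.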

How the results depend on the processing

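Over the alternatives that did not leave out a library, members called lower with obstruction numbered 36 to 39 in wild type and 30 to 38 in the knockout. The share over all tested genes moved too. Under library-size scaling 2001 of 18093 were called lower in wild type and 2179 in the knockout, against 4087 and 4589 in the main fit. Changes of Prodh2, Hpd and Shmt1 without the wild-type day 0 Xist library are given above. Over all alternatives no member was called higher except Glul in the knockout under library-size scaling (1 member). Of 2184 single-member values under an alternative, 2104 kept direction and side of the threshold, 29 lost the call, 29 gained it and 22 changed sign. All sign changes were in the knockout obstruction comparison: Glul to -0.0205 with DESeq2, -0.0246 with RLE factors, -0.0023 without a filter, -0.21 with the pattern covariate, -0.22 among Y-linked libraries, and from -0.0698 to 0.141 with a library left out; Oat to -0.58 with the covariate and -0.70 among Y-linked libraries, and from -0.0693 to 0.572 with a library left out; Aadat to 0.19 with edgeR, 0.14 with DESeq2, 0.26 under library-size scaling and from -0.613 to 0.656 with a library left out; and Shmt1 to 0.033 and Got1 to 0.0906 under library-size scaling. The cause was not tested.

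DESeq2 called 2 members higher and 1 lower by genotype at day 0, 2 higher at day 5, 1 in the interaction, and 1 higher in Y-linked libraries, as RLE factors also did (1). Over all tested genes DESeq2 also called more than limma did in each of these comparisons. On leaving out a library, members were called at day 0 and in the interaction only without wild-type day 0 replicate 1. That fit leaves 1 library in its group, and calls over all tested genes were also more numerous there than in the main fit. At day 5, 0 to 1 members were called higher, 1 of them without knockout replicate 2 (15 of 18017 tested genes). In Y-linked libraries 7 to 13 were called lower, with 7 without knockout day 5 replicate 2 (245 of 18017 tested genes). No paired analysis was possible because the labels give the groups no shared replicate numbers. Wild type at day 0 rests on 2 libraries, 1 of each sex-chromosome pattern, which limits every wild-type comparison. Depth limits Hpd most, with 44 reads in its lowest library; the next lowest member, Gamt, had at least 216 in every library.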
